A study of Saccharomyces cerevisiae with 12 samples.

Results

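The untreated comparison set YOX1 vector cells against control vector cells before any inducer or drug was added, and it took 4 of the 12 libraries of the series, 2 per vector. YOX1 vector cells were WT cells of the haploid laboratory strain BY4741 carrying pBY011-YOX1, a plasmid with YOX1 behind the galactose-inducible GAL1-10 promoter. Control vector cells were the same strain carrying the empty plasmid pBY011. All 4 cultures were taken during exponential growth in raffinose, in synthetic medium without uracil, and none received galactose or hydroxyurea (HU, an inhibitor of ribonucleotide reductase that slows DNA replication). The other 8 libraries came from the same vectors 2 h and 4 h after galactose (2%) and HU (200 mM) were added together. They are used here to show how large the untreated values are and to test how the vector effect changed. They also enter the scaling, the gene filter and the estimate of the spread behind the untreated p-values. The replicates were independent biological samples. The plasmid adds YOX1 copies to the chromosomal gene, and reads from both are counted together, so that the measured YOX1 level is the sum of both sources.

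Yox1 is a homeodomain repressor. It binds DNA together with the MADS-box protein Mcm1 and keeps genes that carry the early cell cycle box (ECB) silent outside the interval between mitosis and the next G1 phase. Yhp1, a related homeodomain protein, acts at the same genes. ECB genes include CLN3, SWI4, CDC6 and genes of the Mcm2-7 replicative helicase. In raffinose the Gal4 activator is bound by its inhibitor Gal80 and the galactose genes are weakly transcribed. The untreated comparison therefore asks how much YOX1 transcript the plasmid gives without galactose, and whether other transcripts differ with it.

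The promoter that drives the plasmid copy is named for the stretch between GAL10 and GAL1. In the reference genome (R64, the build of the deposited coordinates, sacCer3) this stretch covers chromosome II from 278353 to 279020, 668 bases. A search of both strands for the Gal4 recognition pattern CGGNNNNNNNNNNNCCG, which reads the same on both strands, found 3 matches in it. They lie side by side at chrII:278558-278631 (plus strand) and stand in capitals in the sequence below, shown because these letters are where galactose acts on the promoter. The pattern occurs in 5.78% of the 1000-base stretches upstream of 6001 protein-coding genes.
GAL10-GAL1: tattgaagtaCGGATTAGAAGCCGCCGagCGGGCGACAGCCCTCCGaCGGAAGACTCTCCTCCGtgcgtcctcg

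The pattern CCNNNNNNGGAAA, a form of the Mcm1 site, was searched on both strands of the 1000 bases upstream of each start codon. It was found at 7 of the 9 ECB genes (CLN3, SWI4, CDC6, MCM3, MCM5, MCM6 and MCM7), at 7 of 15 genes of the CLB2 cluster and at 7 of 7 a-specific genes. It was found at 2 of the 8 genes that the study selected, which are described below, and at 15.1% of all 6001 genes with such a window. A match of these letters is a description of the sequence only. The match nearest to the start codon is shown for 4 ECB genes in which it reads on the strand of the gene, as examples. At CLN3 and MCM3 the nearest match reads on the other strand. Capitals mark the pattern, and the sequences run 5′ to 3′ on the strand of the gene, at chrV:386307-386333 (minus strand) for SWI4, chrX:69157-69183 (plus) for CDC6, chrVII:121063-121089 (minus) for MCM6 and chrII:625555-625581 (plus) for MCM7.
SWI4: cttatttCCCGTTTAGGAAAtaaatgg
CDC6: gaaattaCCCACTTAGGAAAttgagtt
MCM6: taaatttCCTTTTTAGGAAAagcgcct
MCM7: gaaatttCCTTATAAGGAAAataaatg

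Depth was similar in the 4 untreated libraries. The number of fragments that the width of the deposited intervals implies was about 10800000 and 10790000 in YOX1 vector cells and about 11570000 and 12440000 in control vector cells. Values are given as FPKM, a fragment count normalised for transcript length and for the mapped fragments of the library, after scaling between libraries, with factors of 1.01 to 1.07 in the untreated libraries. The strain matched its markers: genes expressed only in MATa cells were abundant (STE2 and MFA2 among them), LEU2 was listed at 0 in all 4 libraries and MET17 was at or under 0.378. YOX1 vector replicate 1 stood apart from the other 3 libraries. Over 6149 genes that averaged 10 FPKM or more, its median absolute log2 difference was 0.129 from YOX1 vector replicate 2 and 0.133 and 0.124 from the control libraries, whereas the control libraries differed by 0.0686 from each other and by 0.0754 and 0.0809 from YOX1 vector replicate 2. It was the library farthest from the mean of the 4 in 48.1% of these genes. For the gene lists, the median without this library is therefore given beside the median over all libraries.

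YOX1 transcript was 2.93 times as abundant in YOX1 vector cells as in control vector cells before induction. YOX1 (YML027W, chromosome XIII from 221406 to 222563) had 85.4 and 88.4 scaled FPKM in YOX1 vector cells, against 30.4 and 29.0 scaled FPKM in control vector cells. The groups were far from overlapping, and ratios between single libraries lay between 2.80 and 3.05. On the log2(FPKM + 1) scale the difference was 1.52 with an SE of 0.10 (95% interval 1.28 to 1.76), and the limma adjusted p was 0.00209. The values rested on about 1310 and 1303 implied fragments in YOX1 vector cells and 471 and 490 in control vector cells, so that counting error was small beside the difference. An exact permutation test on this gene alone gave p = 0.333 (two-sided), which is the smallest value that permuting 2 against 2 libraries allows. Among the 6887 genes tested, YOX1 ranked 1880th and 1857th by deposited FPKM in YOX1 vector cells and 4122nd and 4241st in control vector cells.

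Set against the induced level, this was a small amount of transcript. YOX1 vector cells held 57.2 scaled FPKM more YOX1 than control vector cells when untreated, 3452 more at 2 h and 2564 more at 4 h, so that the untreated excess was 1.66% and 2.23% of the excess at those times. In control vector cells the deposited YOX1 FPKM was 30.8 and 29.8 untreated, 30.9 and 37.5 at 2 h and 40.8 and 40.7 at 4 h. The change of the vector effect was itself tested, and the log2 difference was 5.12 larger at 2 h (limma adjusted p = 5.19e-06) and 4.36 larger at 4 h (limma adjusted p = 1.80e-05) than untreated.

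**Figure D1:**
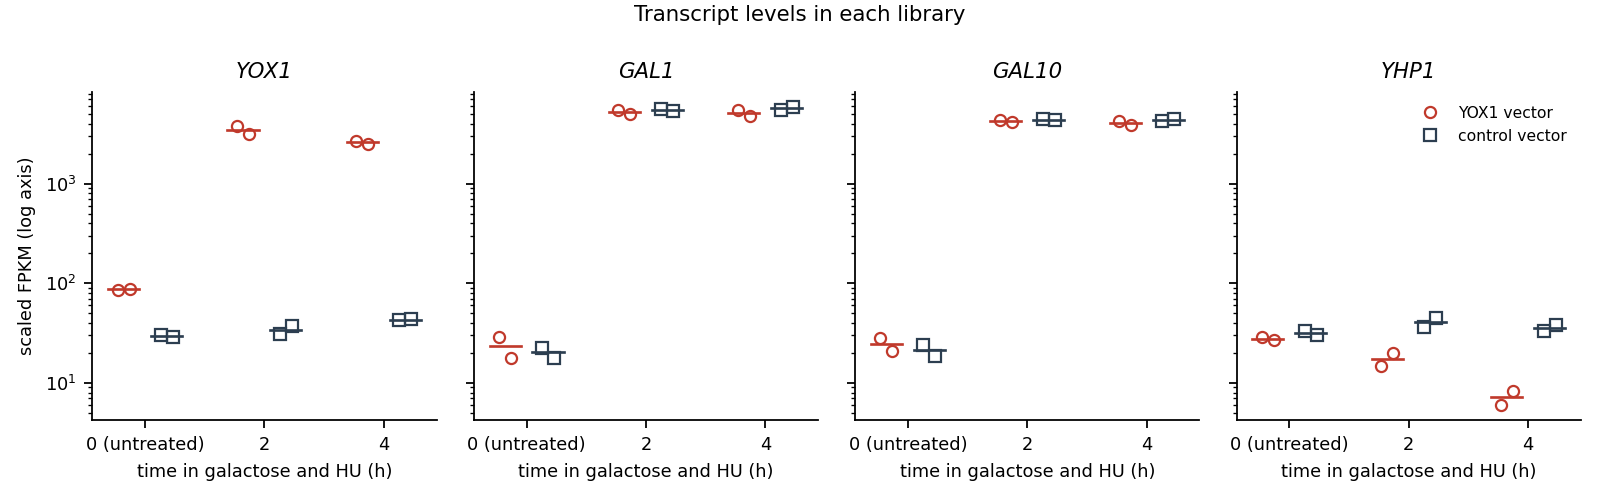
Scaled FPKM (log axis) of YOX1, GAL1, GAL10 and YHP1 in each of the 12 libraries, by time in galactose and HU; circles are YOX1 vector libraries, squares control vector libraries and bars the group means of 2 libraries. Untreated YOX1 averaged 86.9 in YOX1 vector cells and 29.7 in control vector cells, while the untreated libraries of both vectors overlapped for GAL1 and GAL10.

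GAL1 and GAL10, the chromosomal genes on either side of this promoter, showed what it gave in raffinose. GAL1, the galactokinase gene, had 29.2 and 17.9 scaled FPKM in YOX1 vector cells and 22.6 and 17.98 in control vector cells. GAL10, the epimerase gene, had 28.4 and 20.9 scaled FPKM in YOX1 vector cells and 23.9 and 18.8 in control vector cells. Both overlapped between the vectors, and the untreated GAL1 mean was 0.450% of its 2 h mean in YOX1 vector cells and 0.372% in control vector cells. For GAL10 these percentages were 0.574% in YOX1 vector cells and 0.486% in control vector cells. GAL7, which encodes the uridylyltransferase of the pathway, does not border the stretch between GAL10 and GAL1. It had 12.7 and 10.3 scaled FPKM in YOX1 vector cells and 13.02 and 9.07 in control vector cells. In YOX1 vector cells the untreated excess of YOX1 was thus a larger share of its 2 h value than these 3 chromosomal genes had of theirs, as a description of levels that were not tested against each other.

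None of 9 galactose genes was called between the vectors. The transporter gene GAL2 had 9.996 and 7.75 scaled FPKM in YOX1 vector cells and 7.36 and 6.01 in control vector cells, did not overlap, and differed by 0.36 in log2 with an unadjusted p of 0.0180 (limma adjusted p = 0.636). The inhibitor gene GAL80 had 58.1 and 63.7 scaled FPKM in YOX1 vector cells and 64.5 and 69.5 in control vector cells. GAL4, the activator gene, overlapped, with 18.7 and 21.8 scaled FPKM in YOX1 vector cells and 22.3 and 20.5 in control vector cells. The median log2 difference over the 9 genes was 0.07, beside -0.01 over all genes tested. It was 0.02 without YOX1 vector replicate 1, 0.01 without YOX1 vector replicate 2, 0.15 without control vector replicate 1 and 0.02 without control vector replicate 2.

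A second gene carried by the plasmid was URA3. URA3, the selection marker of the plasmid in this uracil-requiring strain, had 378 and 373 scaled FPKM in YOX1 vector cells and 443 and 417 in control vector cells. The libraries did not overlap, but the log2 difference of -0.19 (95% interval -0.42 to 0.04) did not pass the test, with a limma adjusted p of 0.671. The chromosomal neighbours of YOX1 overlapped between the vectors. TSA1, a peroxiredoxin gene, had 1780 and 2396 scaled FPKM in YOX1 vector cells and 2425 and 2353 in control vector cells, and RPS18B, a ribosomal protein gene, had 2292 and 2429 in YOX1 vector cells and 2365 and 2225 in control vector cells.

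Across the transcriptome, 2 of 6887 genes were called at an adjusted p under 0.05 (0.029%), YOX1 higher and RPL39 lower in YOX1 vector cells (0.0145% in each direction). At an unadjusted p under 0.05, 277 genes were lower (4.02%) and 254 were higher (3.69%) in YOX1 vector cells, and the smallest adjusted p after the 2 called genes was 0.356. The libraries of the vectors did not overlap in 1287 genes that were lower (18.7%) and 1200 genes that were higher (17.4%), and the log2 difference was below 0 in 52.7% of genes and above 0 in 46.9%. For a gene that averaged 10 FPKM or more, the 95% interval of the log2 difference reached 0.195 to either side at the median, and the smallest called difference was 1.52. The count of calls moved when a library was left out. Without YOX1 vector replicate 1, 19 genes were called lower and 3 higher. Without control vector replicate 2, 8 were lower and 2 higher, and without YOX1 vector replicate 2, 1 was lower and 3 higher. YOX1 and RPL39 were called in each of these fits, and most of the genes that joined them were copies of tRNA families.

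**Figure D2:**
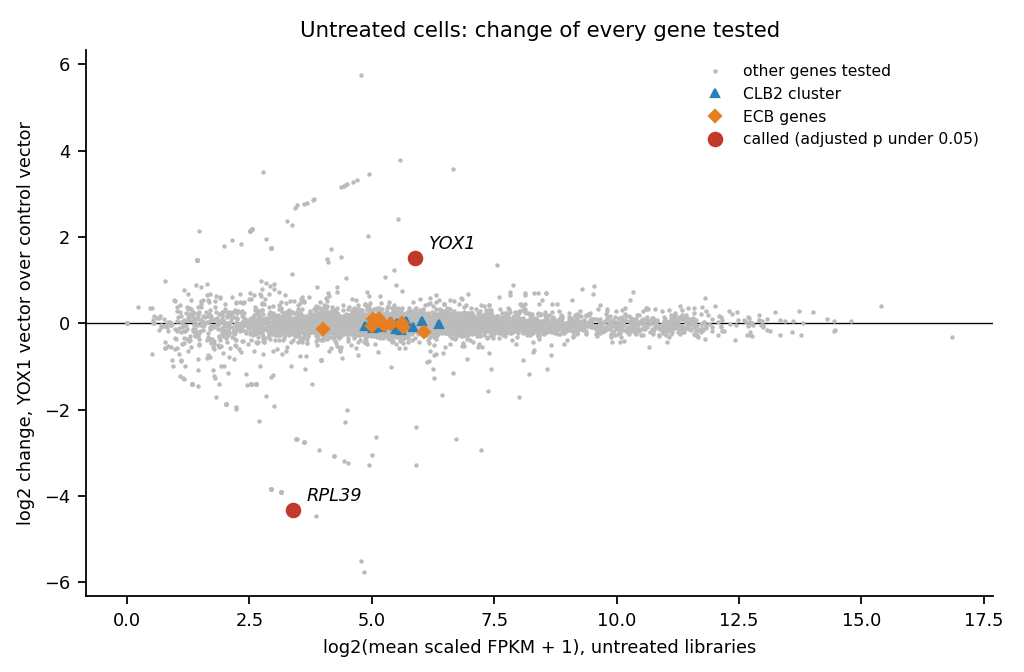
Log2 change between YOX1 vector and control vector in untreated cells (vertical) against the log2 of the mean scaled FPKM + 1 (horizontal) for the 6887 genes tested; diamonds are ECB genes, triangles the CLB2 cluster and filled circles the called genes. YOX1 and RPL39 were the genes called, and the ECB genes lay between -0.19 and 0.11.

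RPL39 (YJL189W, chromosome X from 75933 to 76474), a ribosomal protein gene, was listed at or near 0 FPKM in both YOX1 vector libraries, against 20.0 and 18.2 scaled FPKM in control vector libraries (limma adjusted p = 0.000152). The deposited intervals imply 3.2 and 3.1 fragments for the control values. RPL39 overlaps another gene, so those intervals may also hold the uncertainty of sharing reads, and the numbers are not fragment counts. No fold is given beside values at or near 0. In the annotation RPL39 has coding parts at 75933 to 75938 and 76325 to 76474, and the second of these lies inside BUD19 (chromosome X from 76202 to 76510), an annotated gene on the other strand. The libraries do not keep the strand, so reads of the overlap cannot be assigned to either gene from their sequence alone. The call therefore concerns the value listed for RPL39, and whether RPL39 transcript itself differed between the vectors cannot be told from it. BUD19 had 2460 and 2256 scaled FPKM in YOX1 vector cells and 1975 and 2135 in control vector cells, with a log2 difference of 0.20 and a limma adjusted p of 0.641. After treatment RPL39 was again at or near 0 FPKM in all 4 YOX1 vector libraries, with deposited values of 4.36 and 5.27 at 2 h and 14.2 and 13.6 at 4 h in control vector cells. When only genes that overlap no other were tested, YOX1 was the gene called.

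Differences of a log2 of 1 or more were found in 198 genes (2.87%), and 131 of these were tRNA genes, of which 228 were tested. The reads of tRNA copies with the same sequence cannot be assigned to 1 copy. Once genes under 10 FPKM in both groups, genes with overlapping libraries and genes that overlap another gene were left out, 40 remained, 20 of them tRNA genes. None of these genes apart from YOX1 passed the test.

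The ECB genes, the targets at which Yox1 and Mcm1 are best known, were near equal in untreated cells. None of 9 was called, 6 were below 0 and 3 above, and the median log2 difference was -0.04, beside -0.01 over all genes. Libraries did not overlap in 3 genes that were lower and 1 that was higher, beside 18.7% and 17.4% of all genes. The median was 0.01 without YOX1 vector replicate 2 and -0.05 without YOX1 vector replicate 1.

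CLN3, the G1 cyclin that starts the cell cycle, stood farthest from 0 among them. It had 60.2 and 63.6 scaled FPKM in YOX1 vector cells against 71.0 and 70.9 in control vector cells, a log2 difference of -0.19 (95% interval -0.32 to -0.07) with an unadjusted p of 0.00613 and a limma adjusted p of 0.636. SWI4, which encodes the DNA-binding subunit of the G1/S activator SBF, had 37.4 and 34.0 scaled FPKM in YOX1 vector cells and 32.8 and 33.9 in control vector cells. CDC6, the helicase loading factor, had 14.3 and 14.3 scaled FPKM in YOX1 vector cells and 16.8 and 14.5 in control vector cells. The libraries of CLN3 and CDC6 did not overlap in the lower direction, those of SWI4 did not overlap in the higher direction, and the 95% intervals of SWI4 and CDC6 included 0.

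The 6 helicase subunit genes encode the ring that unwinds DNA at origins. MCM2 had 35.3 and 30.5 scaled FPKM in YOX1 vector cells and 30.5 and 30.3 in control vector cells. MCM3 had 45.2 and 48.9 scaled FPKM in YOX1 vector cells and 50.7 and 49.9 in control vector cells. MCM5 had 37.8 and 34.8 scaled FPKM in YOX1 vector cells and 37.5 and 36.9 in control vector cells. Of these 6, only MCM3 had libraries that did not overlap. CDC6 and MCM3 each overlap another annotated gene, and their reads may be shared with it. MCM4, MCM6 and MCM7 overlapped, with log2 differences of -0.02, -0.05 and 0.01, and the 95% intervals of all 6 lay within -0.25 and 0.31.

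The same genes gave other values once galactose and HU had been added. The median log2 difference of the ECB genes was -0.04 untreated, -0.92 at 2 h and -1.49 at 4 h. The difference between the vector effect at 2 h and that in untreated cells was called lower in 6 of 9 ECB genes, the helicase genes (0.639% of all genes), and at 4 h in 7, with SWI4 added (1.96% of all genes). Leaving out 1 library gave 4 to 6 of these calls at 2 h and 7 at 4 h. For MCM3 the log2 difference was -0.09 untreated, -1.73 at 2 h and -1.96 at 4 h, and for MCM2 it was 0.11, -1.80 and -1.87. CLN3 and CDC6 differed from the helicase genes in this, with log2 differences of -0.06 and 0.13 at 2 h and -0.17 and 0.01 at 4 h, and their change of vector effect was not called. Both changes of the vector effect use the untreated libraries and so are not independent of each other.

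**Figure D3:**
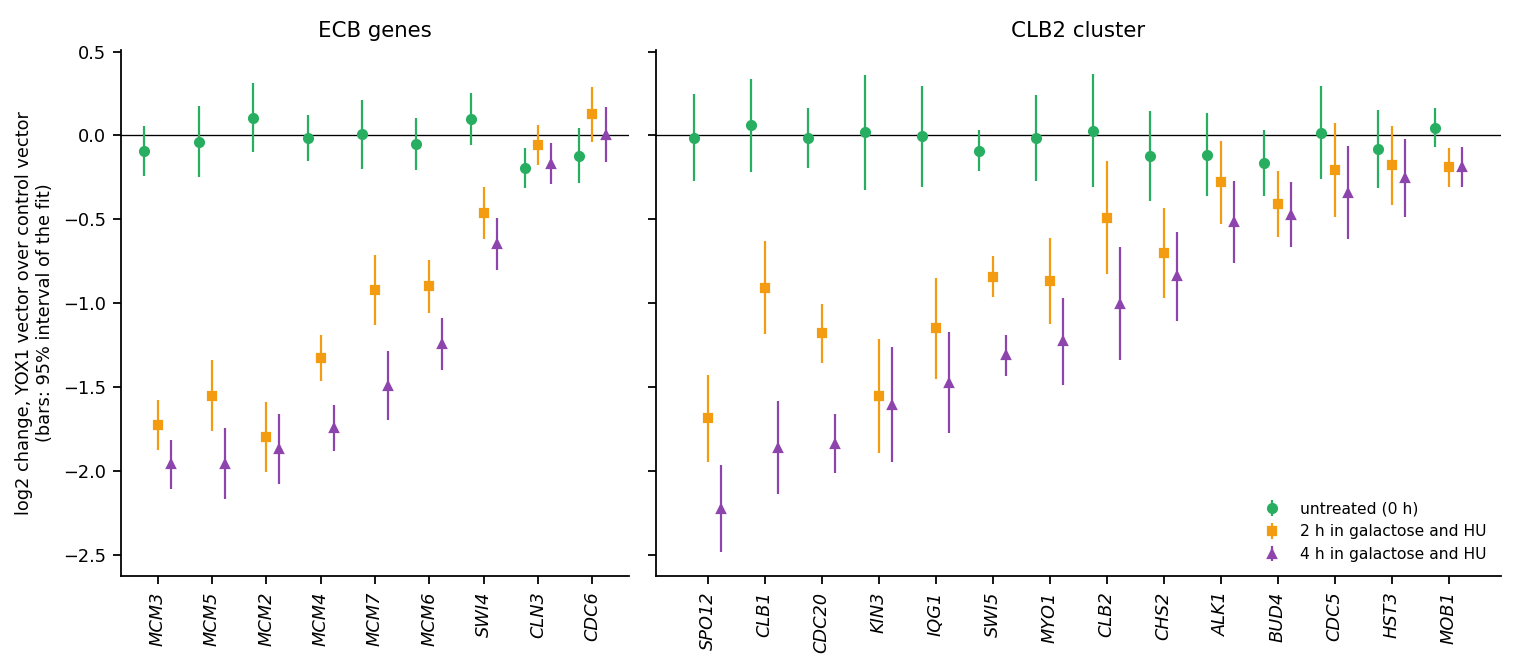
Log2 change between YOX1 vector and control vector for each ECB gene (left) and 14 of the 15 CLB2 cluster genes (right) untreated and at 2 h and 4 h in galactose and HU; points are limma estimates and bars their 95% intervals, from 2 libraries per group. The untreated points lie around 0 in both lists, with medians of -0.04 and -0.01, and the medians at 4 h are -1.49 and -1.004.

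The CLB2 cluster, genes for mitosis that Mcm1 activates together with Fkh2 and Ndd1, had no called member of 15 in untreated cells. Below 0 were 10 and above it 5, with a median of -0.01, which was 0.02 without scaling between libraries and -0.09 without YOX1 vector replicate 1. BUD4, which marks the axial bud site, had 44.6 and 44.3 scaled FPKM in YOX1 vector cells and 51.0 and 48.8 in control vector cells. SWI5, an activator of genes at the end of mitosis, had 55.2 and 54.3 scaled FPKM in YOX1 vector cells and 59.9 and 56.9 in control vector cells. Neither overlapped, and their limma adjusted p was 0.671 for both. The mitotic cyclin genes CLB1 and CLB2 overlapped, with log2 differences of 0.06 and 0.03. The cluster had medians of -0.70 at 2 h and -1.004 at 4 h, and the change of the vector effect was called lower in 5 of the 15 at 2 h and 8 at 4 h, beside 0.639% and 1.96% of all genes. At 2 h only 3 were called without either control replicate of 0 h or 2 h or without either YOX1 vector replicate of 2 h.

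The 8 genes that the study selected were likewise not called in untreated cells. The study took genes lower with YOX1 overexpression and also lower in cells without the P-body gene LSM1. Loss of these genes also had to worsen the growth of cells without LSM1 in HU. Part of this choice used libraries of this series, so the behaviour of the 8 genes after induction is no independent evidence. UTH1, which encodes a cell wall and mitochondrial protein, had 786 and 1036 scaled FPKM in YOX1 vector cells and 1111 and 1079 in control vector cells. PRY3, a cell wall gene, had 36.2 and 47.1 scaled FPKM in YOX1 vector cells and 50.9 and 49.2 in control vector cells. ALD6, the cytosolic acetaldehyde dehydrogenase gene, had 765 and 886 scaled FPKM in YOX1 vector cells and 912 and 926 in control vector cells. In each of these 3 the libraries did not overlap and YOX1 vector replicate 1 was the lowest of the 4. The log2 differences were -0.28 for UTH1, -0.27 for PRY3 and -0.16 for ALD6, with limma adjusted p between 0.651 and 0.671. RTC1 also did not overlap, with a log2 difference of -0.04. In all, 4 of the 8 did not overlap in the lower direction, beside 18.7% of all genes. ICS2, MMR1, RAD54 (a recombination motor protein) and YML131W overlapped, with log2 differences of -0.01 to 0.04. The median over the 8 was -0.02 untreated (0.01 without scaling between libraries and -0.05 without YOX1 vector replicate 1), -0.61 at 2 h and -1.05 at 4 h. The change of the vector effect was called lower in 2 of 8 at 2 h and 7 of 8 at 4 h, beside the same shares of all genes (0 and 3 of 8 with replicate number as a block within each time). The count at 2 h was 4 without YOX1 vector replicate 1 of 0 h and 0 without control vector replicate 1 of 0 h, and 1 without control vector replicate 2 of 0 h or 2 h, YOX1 vector replicate 2 of 0 h or YOX1 vector replicate 2 of 2 h.

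Regulators that work with Mcm1 were not called either. YHP1, the paralog of YOX1 and itself a target of the pair, had 28.8 and 26.8 scaled FPKM in YOX1 vector cells and 33.0 and 30.1 in control vector cells. These did not overlap, and the log2 difference was -0.18 (95% interval -0.59 to 0.24) with a limma adjusted p of 0.787. The log2 difference of YHP1 was -1.18 at 2 h and -2.19 at 4 h, and its change of vector effect was called at 4 h. MCM1 had 127 and 170 scaled FPKM in YOX1 vector cells and 152 and 151 in control vector cells. ARG80, which pairs with Mcm1 at arginine genes, had 22.5 and 32.3 scaled FPKM in YOX1 vector cells and 36.2 and 39.3 in control vector cells, with a log2 difference of -0.47 and a limma adjusted p of 0.671. Of the 9 genes in this list 7 were below 0, with a median of -0.06, which was -0.03 without YOX1 vector replicate 1 and -0.13 without YOX1 vector replicate 2.

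Among other Mcm1 targets, the a-specific genes, which give MATa cells their pheromone and receptor, had a median log2 difference of -0.14, with 6 of 7 below 0 and none called. The median was -0.08 without YOX1 vector replicate 1, with 5 of 7 below 0, and between -0.10 and -0.08 with any one untreated library left out. MFA2, an a-factor gene, was the member above 0, with 6757 and 5502 scaled FPKM in YOX1 vector cells and 4937 and 5224 in control vector cells. MFA1, the other a-factor gene, overlapped, with 879 and 1080 scaled FPKM in YOX1 vector cells and 927 and 1409 in control vector cells. The 6 arginine genes controlled by Mcm1 with the ArgR proteins had a median of -0.11 and all lay below 0, and without YOX1 vector replicate 1 the median was -0.04 with 4 of 6 below 0, while it was -0.20 without replicate 2. CAR2, the ornithine transaminase gene, had 110 and 155 scaled FPKM in YOX1 vector cells and 163 and 157 in control vector cells, and it overlaps another gene too. Pheromone response genes had a median of -0.02, which was 0.02 without scaling between libraries and 0.01 without YOX1 vector replicate 1, with 8 of 15 below 0.

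Later steps of the G1 program gave no call either. Of 20 genes driven by SBF and MBF, the G1/S activators, 16 were below 0, none was called and the median was -0.04, which was -0.06 without YOX1 vector replicate 1 and -0.02 without YOX1 vector replicate 2. CLN2, a G1 cyclin gene, had 73.9 and 80.0 scaled FPKM in YOX1 vector cells and 89.8 and 84.5 in control vector cells, with a log2 difference of -0.18, an unadjusted p of 0.0252 and a limma adjusted p of 0.636. WHI5, the gene for the inhibitor of SBF, had 24.8 and 32.9 scaled FPKM in YOX1 vector cells and 36.5 and 34.5 in control vector cells, and it overlaps another annotated gene. The ribonucleotide reductase gene RNR4 had 502 and 537 scaled FPKM in YOX1 vector cells and 604 and 593 in control vector cells, with an unadjusted p of 0.0139 and a limma adjusted p of 0.636, and it was the member of 10 damage checkpoint genes that passed the unadjusted threshold. The median of that list was -0.03, which was 0.01 without scaling between libraries and -0.04 without YOX1 vector replicate 1. The 8 core histone genes had a median of -0.03, which was 0.01 without scaling between libraries and 0.07 without YOX1 vector replicate 1, and the libraries of 7 overlapped.

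**Figure D4:**
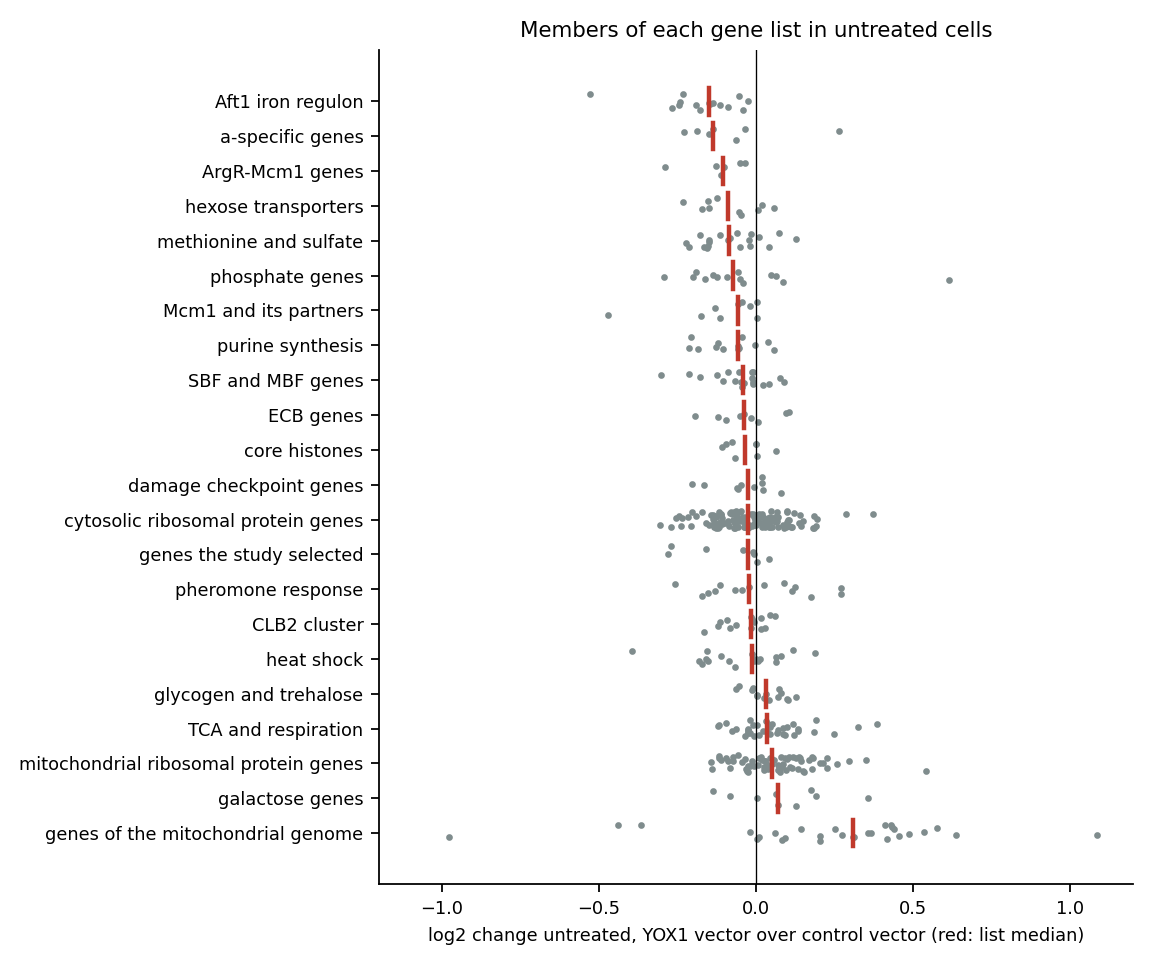
Log2 change between YOX1 vector and control vector in untreated cells for the members of the gene lists described in the text; points are genes and red bars list medians. List medians run from -0.15 for the Aft1 iron regulon to 0.31 for the genes of the mitochondrial genome, and RPL39 lies outside the axis.

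The list that lay lowest was the Aft1 iron regulon, genes for iron uptake that the activator Aft1 controls. All 15 members were below 0 with a median of -0.15, where 52.7% of all genes were below 0. None was called, 4 had an unadjusted p under 0.05 (beside 4.02% of all genes), and in 9 the libraries did not overlap (beside 18.7% of all genes). FTR1, the iron permease gene, had 107 and 116 scaled FPKM in YOX1 vector cells and 138 and 131 in control vector cells, with a log2 difference of -0.27, an unadjusted p of 0.00400 and a limma adjusted p of 0.636. FET3, the oxidase that works with it, had 253 and 289 scaled FPKM in YOX1 vector cells and 327 and 309 in control vector cells, with a log2 difference of -0.23 and a limma adjusted p of 0.636. FIT3, a cell wall mannoprotein that holds iron chelates, had 76.9 and 117 scaled FPKM in YOX1 vector cells and 140 and 135 in control vector cells, with a log2 difference of -0.53. YOX1 vector replicate 1 was the lowest library in all 3 genes. Without it the median over the list was -0.12 and 11 of 15 were below 0. The median was -0.22 at 2 h and -0.24 at 4 h.

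Sulfur genes lay in the same direction, with 16 of 20 tested genes of methionine and sulfate metabolism below 0, 10 without overlap (beside 52.7% and 18.7% of all genes) and a median of -0.09, which was -0.03 without YOX1 vector replicate 1. CYS3, the cystathionine lyase gene, had 161 and 200.2 scaled FPKM in YOX1 vector cells and 214 and 203 in control vector cells. MET8 had 10.5 and 10.5 scaled FPKM in YOX1 vector cells and 12.4 and 12.5 in control vector cells. Neither passed the test, with a limma adjusted p of 0.671 for both. Phosphate genes had a median of -0.07, purine synthesis genes -0.06 and hexose transporter genes -0.09, with no member called. In these 3 lists the median was -0.10, -0.01 and -0.02 without YOX1 vector replicate 1.

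Respiratory genes lay on the other side. Of 38 nuclear genes of the TCA cycle and the respiratory chain 24 were above 0, 6 of them had an unadjusted p under 0.05 (beside 3.69% of all genes) and in 10 the libraries did not overlap (beside 17.4%). The median was 0.04, which was 0.12 without YOX1 vector replicate 1 and -0.06 without YOX1 vector replicate 2. COX6, a subunit gene of cytochrome c oxidase, had 618 and 586 scaled FPKM in YOX1 vector cells and 531 and 524 in control vector cells, a log2 difference of 0.19 with an unadjusted p of 0.0110 and a limma adjusted p of 0.636. COX9 had 4504 and 3346 scaled FPKM in YOX1 vector cells and 2806 and 3152 in control vector cells, and COX12 had 2027 and 1555 in YOX1 vector cells and 1402 and 1430 in control vector cells. Both encode subunits of the same oxidase, and in both YOX1 vector replicate 1 was the highest library. The list as a whole lay the other way in that library. Its median deviation from the mean of the 4 libraries was -0.071 there and 0.078 in YOX1 vector replicate 2. In the control vector libraries it was -0.024 and -0.004. ATP4, a subunit gene of ATP synthase, had 495 and 496 scaled FPKM in YOX1 vector cells and 446 and 457 in control vector cells.

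A pair of mitochondrial lists was added after values had been seen. Of 68 genes with the names of mitochondrial ribosomal proteins 48 were above 0, 8 had an unadjusted p under 0.05 and in 20 the libraries did not overlap in that direction, beside 46.9%, 3.69% and 17.4% of all genes, with a median of 0.05 (0.07 without YOX1 vector replicate 1). Of 29 genes on the mitochondrial genome 25 were above 0, with a median of 0.31 that was 0.03 without YOX1 vector replicate 1 and 0.68 without YOX1 vector replicate 2. The 29 entries were counted singly, without a check for overlap between them. Log2 differences were 0.08 for COX1, 0.09 for COB, 0.06 for OLI1 and 0.01 for COX3. They were 0.37 for COX2, 0.20 for ATP6 and 0.25 for VAR1. Some intervals were wide, such as -3.71 to 2.83 for ATP8 and -4.66 to 4.67 for Q0092. The median deviation of the 29 genes from the mean of the 4 libraries was 0.47 in YOX1 vector replicate 1 and -0.09 in replicate 2, against -0.14 and -0.20 in the control vector libraries. In 11 of the 29 genes the libraries did not overlap in the higher direction, beside 17.4% of all genes. The plot of library deviations shows the same for the arginine genes, at -0.16 and 0.06 in YOX1 vector cells and 0.07 and 0.04 in control vector cells. The part of the library in these values was not tested further.

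**Figure D5:**
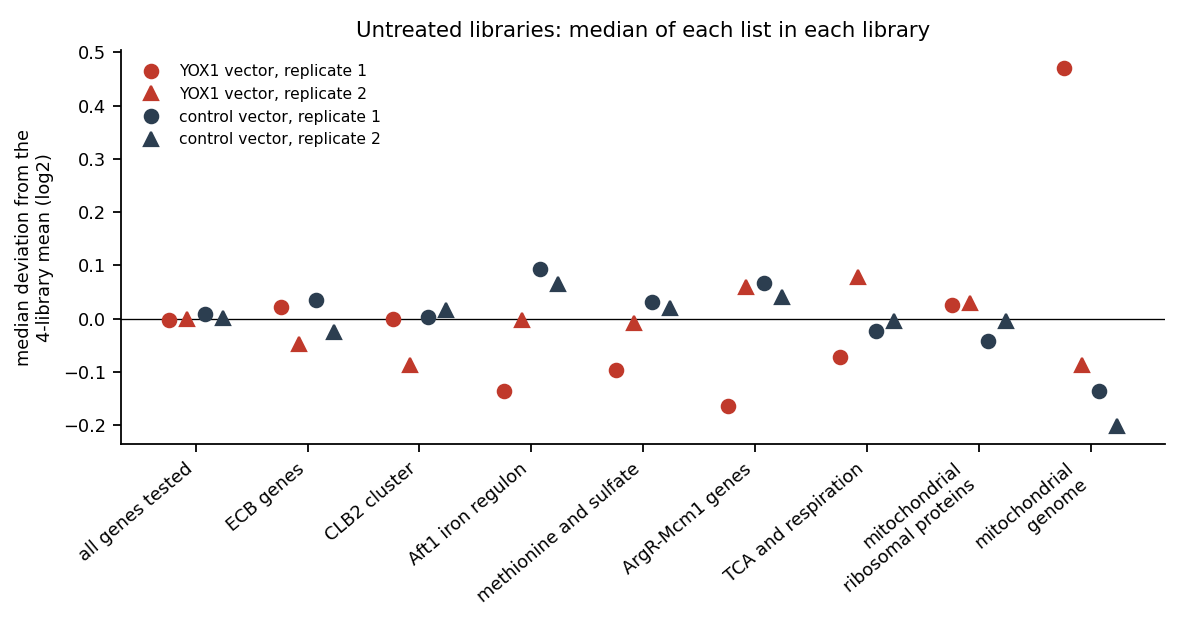
Median deviation of each gene list (horizontal) from the mean of the 4 untreated libraries, on the log2 scale; circles are replicate 1 and triangles replicate 2, red for YOX1 vector and dark for control vector. YOX1 vector replicate 1 stands at 0.47 for the genes of the mitochondrial genome, apart from the other 3 libraries, while the Aft1 iron regulon stands at -0.14 and 0.00 in YOX1 vector cells and 0.09 and 0.07 in control vector cells.

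Ribosomal protein genes other than RPL39 were not called. Over the list of 135, RPL39 included, the median was -0.03, with 80 below 0 and 55 above. It was 0.01 without scaling between libraries, -0.0012 without YOX1 vector replicate 1 and -0.07 without YOX1 vector replicate 2. Heat shock genes had a median of -0.01, and 12 of 19 were below 0. The median was 0.02 without scaling, and without YOX1 vector replicate 1 it was -0.06 with 13 of 19 below 0. HSP30, a plasma membrane heat shock gene, had 207 and 192 scaled FPKM in YOX1 vector cells and 274 and 251 in control vector cells, without overlap and with a limma adjusted p of 0.648. Genes of glycogen and trehalose metabolism, storage carbohydrates, had a median of 0.03 with 11 of 15 above 0, and the median was 0.07 without YOX1 vector replicate 1.

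Apart from the lists, the 10 genes with the smallest p in each direction did not pass the test. AIR1, which encodes a zinc knuckle protein of the nuclear RNA surveillance complex TRAMP, had 9.87 and 9.25 scaled FPKM in YOX1 vector cells and 12.7 and 12.5 in control vector cells, a log2 difference of -0.37 with a limma adjusted p of 0.356. YOR161C-C had 6.24 and 6.49 scaled FPKM in YOX1 vector cells and 31.0 and 39.3 in control vector cells, with a log2 difference of -2.29 and a limma adjusted p of 0.582. It rested on an implied 1 and 1 fragments in YOX1 vector cells and 5 and 7 in control vector cells, and its log2 difference was 0.62 at 2 h and 0.30 at 4 h. TRM1, a tRNA methyltransferase gene, NOC4, a ribosome biogenesis gene, and FSF1 had log2 differences of -0.19, -0.25 and -0.19. YPR016W-A, PIH1, YKL070W, YGL039W and GAS3 completed the 10 lowest by p, with log2 differences from -0.39 to -0.21.

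On the other side EAF6, a subunit gene of the NuA4 histone acetyltransferase, had 142 and 131 scaled FPKM in YOX1 vector cells and 100.2 and 105 in control vector cells, a log2 difference of 0.42 with a limma adjusted p of 0.636. VPS51, which encodes a subunit of a Golgi tethering complex, had 47.0 and 46.7 scaled FPKM in YOX1 vector cells and 36.8 and 36.4 in control vector cells. YOR293C-A had 17.4 and 6.03 scaled FPKM in YOX1 vector cells and was listed at 0 in both control vector libraries, on an implied 3 and 1 fragments. RRT8, MIX23, HYM1, MRPL6, FYV6, IPK1 and NRS1 completed the 10 highest by p, with log2 differences from 0.21 to 0.50 and the same limma adjusted p of 0.636. These 20 genes were chosen by their p, and standing in the list supports none of them.

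The genes that responded to YOX1 after induction were also examined in the untreated libraries, which entered that choice only through the filter, the scaling and the shared estimate of the spread. Of 116 genes called lower at 2 h (1.68% of all genes), 74 (63.8%) were below 0 in untreated cells, beside 52.7% of all genes, and in 39 (33.6%) the untreated libraries did not overlap in that direction, beside 18.7%. Of 297 genes called lower at 4 h (4.31%), 185 (62.3%) were below 0 untreated and 94 (31.6%) did not overlap in that direction. In the higher direction 16 (13.8%) of the 2 h genes and 51 (17.2%) of the 4 h genes did not overlap, beside 17.4% of all genes. The median untreated log2 difference was -0.02 for the 2 h genes and -0.03 for the 4 h genes, where their medians at those times were -0.68 and -0.54. Of the 131 genes other than YOX1 called higher at 4 h (1.92% with YOX1), 68 were below 0 untreated, with a median of 0.00, and 33 (25.2%) did not overlap in the lower direction and 33 in the higher direction. Both shares of this set were above those of all genes (18.7% and 17.4%). A call and a lack of overlap both favour genes with a small spread between replicates, in either direction. The shares without overlap are therefore not independent of how the sets were chosen. In the 2 h and 4 h sets called lower, the share was above that of all genes in the lower direction only. At an unadjusted limma p under 0.05, 9 of the 116 genes were lower and 1 higher untreated, and 29 of the 297 were lower and 3 higher. Of all genes, 4.02% were lower and 3.69% higher at that threshold. These p-values use the same estimate of the spread as the calls, and the reason for the direction was not tested. The medians of the lower sets were between -0.04 and -0.02 with each untreated library left out in turn.

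Median log2 differences by nuclear chromosome lay between -0.07 (chromosome I, 117 genes) and 0.01 (chromosome IV, 859 genes), and the 531 genes of chromosome XIII, which carries YOX1, had a median within this range.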

How the data were processed

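Ribosomal RNA was depleted, and libraries were made with a kit that does not keep the strand. Per the labels and the study's methods, the authors aligned the reads with TopHat2 to sacCer3 and estimated FPKM per gene with Cufflinks and Cuffdiff (versions are not given in the sources used here), and the deposited FPKM values are used here without the authors' own comparisons. All estimates of the untreated libraries were completed. Of 7126 genes, 6048 matched RefSeq R64, 6036 of them with the same coordinates, and 1420 overlap another gene.

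FPKM were divided by a median-ratio factor per library (0.932 to 1.07), and log2(FPKM + 1) was fitted with limma 3.58.1 (R 4.3.3) as 6 group means over all 12 libraries with a variance trend, leaving 6 residual degrees of freedom. The 6887 genes with a mean FPKM of 1 or more were tested, two-sided, and a call needed a p under 0.05 after Benjamini-Hochberg adjustment over all of them. All limma p-values are from this fit, and fold changes of low genes are understated by the pseudocount of 1. The p-values rest on an estimate of the spread per gene that the 6 groups of 2 cultures share, so the treated libraries enter it too. Fragment numbers were derived from the deposited intervals and are approximate. The fit was tested on simulated data.

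Members and lists were chosen with earlier results of these data known. Named by rule were YOX1, YHP1, URA3, GAL1, GAL7, GAL10, RPL39, BUD19, called genes, the 8 genes the study selected, the 2 most extreme members per direction of each list (10 FPKM or more), and the 10 genes per direction with the smallest p among those without overlap. Not all that the rule allows are printed, and any other gene was chosen after its values were seen. Alternatives covered scaling, pseudocount, filter, samples in the fit, replicate number, variance moderation, overlapping genes and each library left out. Some items are not reported here. Tables and figures were made with Python 3.11.15.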

Additional observations from a re-analysis of the deposited data

Results flagged for a closer look

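The vector effect after induction differed from the untreated vector effect in 51 genes at 2 h and 171 genes at 4 h (difference of the 2 contrasts in the same limma fit, adjusted p under 0.05). In log2, the difference at 2 h was 5.12 for YOX1, -1.90 for MCM2, -1.63 for MCM3, -1.31 for MCM4, -1.51 for MCM5, -0.85 for MCM6 and -0.93 for MCM7. It was -1.42 for ICS2 and -0.68 for YML131W. At 4 h it was 4.36 for YOX1, -2.01 for YHP1, -0.74 for SWI4, -1.98 for MCM2, -1.87 for MCM3, -1.73 for MCM4, -1.92 for MCM5, -1.19 for MCM6 and -1.50 for MCM7. Among the genes that the study selected it was -0.82 for ALD6, -1.84 for ICS2, -1.14 for MMR1, -0.58 for RAD54, -0.47 for RTC1, -1.42 for UTH1 and -1.11 for YML131W. Galactose and HU were added together, so their parts in these differences cannot be told apart.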

How the results depend on the processing

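The untreated comparison gave 1 gene lower and 1 higher. Genes called lower were 0 when the minimum mean was 10 FPKM or when only genes that overlap no other were tested, and 8 (with 2 higher) when only the 4 untreated libraries were fitted. With a library left out there were 1 to 19 lower and 1 to 3 higher. The replicate numbers were not taken as a pairing, since they are not stated to mark a shared batch. The differences between replicates 1 and 2 correlated between the vectors with r of 0.043 untreated, 0.084 at 2 h and 0.491 at 4 h. A replicate effect shared by the vectors is thus possible at 4 h, and counts with a replicate block are given here. With a replicate block within each time, 0 genes were called lower and 0 higher: YOX1 stayed at 1.52 with a limma adjusted p of 0.193, and the limma adjusted p of RPL39 was 0.0769. With that block the change of the vector effect was called lower at 2 h and 4 h in 3 and 6 ECB genes, 1 and 7 CLB2 cluster genes and 0 and 3 of the genes that the study selected. A replicate block over all libraries kept both calls. The change of the vector effect at 2 h was called lower in 44 genes (5 with the replicate block within each time, 12 to 40 with a library left out) and higher in 7 (1 with that block, 4 with a pseudocount of 0.1, 4 with a minimum of 10 FPKM, 1 to 25 with a library left out). At 4 h it was called lower in 135 genes (58 with the block, 73 to 136 with a library left out) and higher in 36 (11 with the block, 10 to 76 with a library left out). The lowest of these leave-one-out counts came without control vector replicate 1 of 0 h, and the highest counts of higher genes without YOX1 vector replicate 1 of 0 h at 2 h and replicate 2 of 0 h at 4 h. The causes were not tested. No called result reversed, but uncalled list medians near 0 changed sign in 7 lists without scaling, 2 without YOX1 vector replicate 1, 2 without YOX1 vector replicate 2 and 3 without control vector replicate 1. The median of all genes was -0.01 and 0.03 without scaling.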
